A study of Mus musculus with 6 samples.

Results

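The transcripts of 10 receptors of the CD28 family and of related coinhibitory receptors were described in sorted regulatory T cells (Tregs) of mice with Junb alleles labelled for deletion (KO) and of mice with wild-type Junb (WT), the gene of the transcription factor JunB. The members were chosen by gene symbol, namely Ctla4, Cd28, Icos, Pdcd1, Btla, Tigit, Lag3, Cd226, Cd96 and Havcr2. All 10 were found among the 53379 gene rows, and all 10 passed the filter on low counts that left 20475 genes to test. KO libraries (bKO in the labels) came from mice labelled Foxp3YFP-CrexJunbFlox/Flox and WT libraries from mice labelled Foxp3YFP-CrexJunb+/+, with 3 libraries each. All mice were C57BL/6 and aged 3 months, and both genotypes carried the Cre allele, so an effect of Cre itself is shared by them. Cre was made under Foxp3 and so acts in cells that have expressed Foxp3. The sources used here do not give the sorting gate, the sex of the mice or whether a library came from 1 animal.

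CD28 is the costimulatory receptor that naive T cells need beside the antigen receptor, and its tail recruits PI3 kinase. CTLA-4 binds the same ligands, CD80 and CD86, with higher affinity and takes them off the antigen-presenting cell, which is a main means by which Tregs suppress. ICOS is an inducible relative of CD28 that maintains effector Tregs, while PD-1 (Pdcd1) and BTLA recruit the phosphatases SHP-1 and SHP-2 through tyrosine motifs. TIGIT, CD96 and CD226 share the ligand CD155, and CD226 is the activating member of that trio. LAG-3 binds MHC class II, and TIM-3 (Havcr2) binds galectin-9 among other ligands.

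Each library held between 33784183 and 41231173 counts. Junb, the targeted gene, stood at 57.1, 57.3 and 49.6 CPM (counts scaled to the library size) in KO replicates 1 to 3 and at 87.1, 77.5 and 89.5 CPM in WT replicates 1 to 3. The KO mean was 64.5% of the WT mean, so transcripts of Junb were still counted in KO, and no protein was measured. KO replicate 1 stood apart in its makeup: the summed level of 10 Treg markers was 1057 CPM there, against 1769 and 2362 CPM in KO replicates 2 and 3 and 2187 to 2511 CPM in WT. WT replicate 2 stood apart from the other WT libraries by high B cell and myeloid markers. Many results are therefore also given without KO replicate 1, and some without WT replicate 2. The table names carry a number that the labels do not explain, and it divides the libraries into set A (KO replicate 2, WT replicates 1 and 2) and set B (KO replicates 1 and 3, WT replicate 3).

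Cd28 (60716800 to 60773359), Ctla4 (60887000 to 60915832) and Icos (60977927 to 61000320) lie side by side on the plus strand of mouse chromosome 1 in GRCm38. Pdcd1 lies farther along chromosome 1 (94038305 to 94052553, minus strand). Tigit (43648867 to 43664146, minus), Btla (45224315 to 45257670, plus) and Cd96 (46035657 to 46120251, minus) are on chromosome 16, Lag3 (124904361 to 124911705, minus) is on chromosome 6 and Havcr2 (46454935 to 46481255, plus) is on chromosome 11. No exon of a member overlapped an exon of another gene in GENCODE M21. The annotation used for the counts is not given, and Btla, Tigit and Cd226 had another identifier version there. The check therefore does not show that the counts are free of such overlap.

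JunB binds DNA as part of AP-1, and the RefSeq promoter windows of 6 members (GRCm38.p6, 250 bases before to 50 after a transcript start) were searched for the AP-1 letters TGANTCA, which read the same on both strands. Only the window of Havcr2 among the 6 (Ctla4, Pdcd1, Havcr2, Tigit, Btla and Cd96) held them, against 7.81% of all 32851 windows. The windows of Pdcd1 and Tigit, the members whose genotypes did not overlap, and of Havcr2 are printed 5′ to 3′, with the AP-1 match in capitals. The printed window of Pdcd1 is chr1:94052504-94052803 (minus strand), that of Tigit is chr16:43664135-43664434 (minus) and that of Havcr2 is chr11:46454681-46454980 (plus).
Pdcd1: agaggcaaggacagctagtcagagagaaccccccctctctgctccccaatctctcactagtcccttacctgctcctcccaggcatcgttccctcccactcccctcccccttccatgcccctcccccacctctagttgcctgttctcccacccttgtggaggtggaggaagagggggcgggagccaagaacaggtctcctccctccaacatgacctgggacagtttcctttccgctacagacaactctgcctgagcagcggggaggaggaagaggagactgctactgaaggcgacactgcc
Tigit: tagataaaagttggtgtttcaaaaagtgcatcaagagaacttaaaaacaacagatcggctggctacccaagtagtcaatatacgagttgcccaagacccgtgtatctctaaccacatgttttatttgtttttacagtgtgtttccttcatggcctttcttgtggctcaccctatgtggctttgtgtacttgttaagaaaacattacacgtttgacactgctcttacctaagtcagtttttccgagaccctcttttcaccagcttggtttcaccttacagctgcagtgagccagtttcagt
Havcr2: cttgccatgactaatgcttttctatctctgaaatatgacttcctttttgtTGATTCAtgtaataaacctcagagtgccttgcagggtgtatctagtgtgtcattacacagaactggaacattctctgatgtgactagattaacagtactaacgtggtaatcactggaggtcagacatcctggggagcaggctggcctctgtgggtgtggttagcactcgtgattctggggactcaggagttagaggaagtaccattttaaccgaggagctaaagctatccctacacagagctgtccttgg
The match in Havcr2 runs from base -200 to base -194 before the start. The letters TGACGTCA of the related CRE motif, held by 1.79% of all windows, and the forkhead letters GTAAACA (either strand, 3.65% of all windows) were in none of the 6. For NFAT the letters TGGAAA, on either strand, were in the windows of Ctla4 (bases -144 to -139) and Cd96 (bases -67 to -62). Of all windows 21.4% held them. The shorter letters GGAAA were not searched, and the printed windows of Pdcd1 and Tigit hold their reverse complement TTTCC. The search therefore does not show that those windows lack shorter NFAT letters. TATAAA, on either strand, was in the windows of Ctla4 (bases 41 to 46 after the start) and Cd96 (bases -214 to -209) as well, against 13.6% of all windows. These searches describe letters in short windows and say nothing of enhancers or of binding.

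Of the 10 receptors 7 had a lower mean in KO, namely Lag3, Icos, Pdcd1, Ctla4, Tigit, Cd96 and Btla, and 3 had a higher mean, namely Havcr2, Cd226 and Cd28. The median log2 difference over the members, KO minus WT, was -0.34, while that over all 20475 genes was 0.0055 and 49.1% of all genes had a lower mean in KO. By edgeR's quasi-likelihood test with Benjamini-Hochberg adjustment 0 members passed a threshold of 0.05 (each adjusted p = 0.9999), and 0% of all genes passed. Before adjustment Pdcd1 and Lag3 had an edgeR p under 0.05, as had 2.88% of all genes. limma-voom called 0% of genes and DESeq2 0.188%, and neither called a member. Before adjustment 1 member (Pdcd1) had a p under 0.05 by limma-voom, as had 3.66% of all genes, and 3 (Icos, Pdcd1 and Lag3) by DESeq2, as had 3.95% of all genes. In KO replicate 1 stood the lowest KO value of 9 of the 10 members, all but Lag3, where 34.9% of all genes were lowest among the KO libraries. Without that library 6 members had a lower mean and the median was -0.15, and without WT replicate 2 there were 8 with a lower mean. In bulk samples fewer cells that express a receptor and less of its RNA per cell cannot be told apart.

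**Figure D1:**
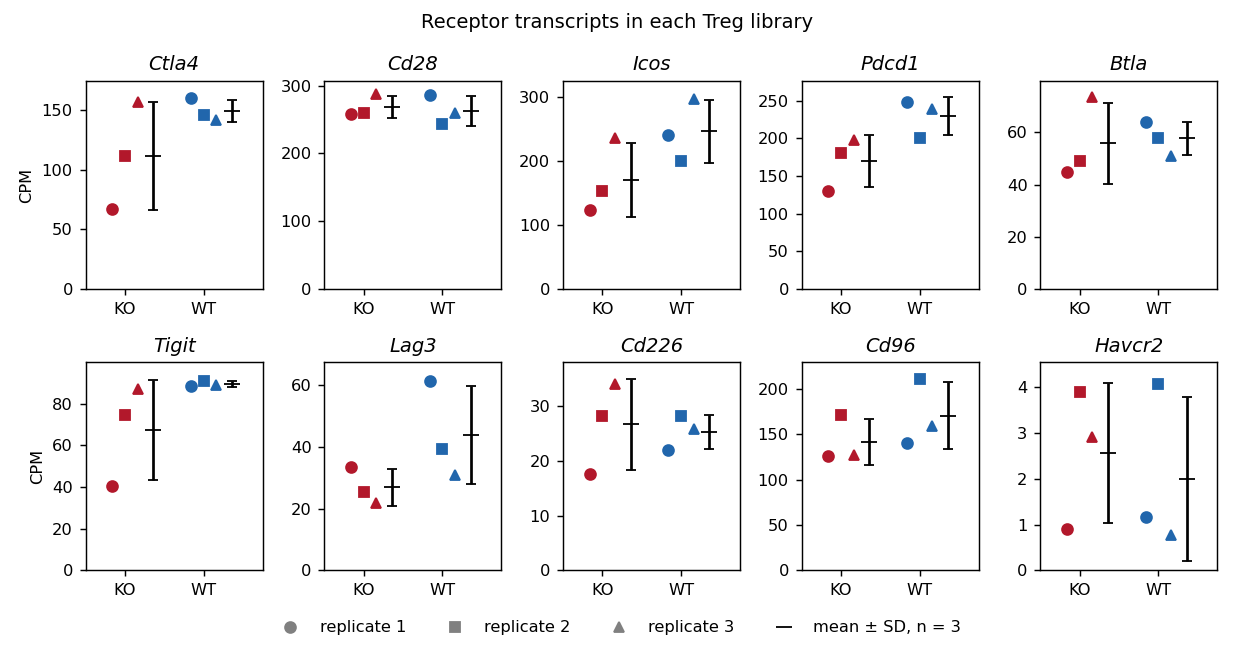
TMM-scaled CPM (y axis, linear from 0) of each of the 10 receptors in the 3 KO and the 3 WT libraries, with symbols for replicates and the mean ± SD beside them. KO replicate 1 is the lowest KO library in every panel but that of Lag3, and KO and WT points do not overlap for Pdcd1 and Tigit.

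Ctla4, Tigit, Icos and Pdcd1 are receptors that Tregs carry at high levels, and all 4 had a lower mean in KO. Ctla4 stood at 66.6, 111 and 157 CPM in KO replicates 1 to 3 and at 159.7, 146 and 142 CPM in WT replicates 1 to 3. KO replicate 3 lay inside the WT range and the other KO libraries below it. The means were 112 ± 45.1 CPM in KO and 149 ± 9.45 CPM in WT (SD, n = 3 each, as for all means given), a log2 difference of -0.42 (SE 0.29, 95% interval -1.09 to 0.26, exact permutation p = 0.3, edgeR adjusted p = 0.9999). Without KO replicate 1 the difference was -0.16, and without KO replicate 3 it was -0.75. It was -0.45 within set A and -0.47 within set B.

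Icos, the inducible costimulator, stood at 124, 153 and 236 CPM in KO replicates 1 to 3 and at 241, 200.3 and 297 CPM in WT replicates 1 to 3. Again KO replicate 3 overlapped WT, and the 2 other KO libraries lay below all WT libraries. The means were 171 ± 58.1 CPM in KO and 246 ± 48.7 CPM in WT, and the log2 difference was -0.53 (SE 0.26, 95% interval -1.15 to 0.093, exact permutation p = 0.2, edgeR adjusted p = 0.9999). It was -0.35 without KO replicate 1, -0.84 without KO replicate 3, -0.53 within set A and -0.80 within set B.

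Cd28, which naive and memory T cells and Tregs alike express, showed no difference beyond the spread between libraries. Its levels were 257, 259.7 and 287 CPM in KO replicates 1 to 3 and 287, 243 and 259 CPM in WT replicates 1 to 3. The log2 difference was 0.028 (SE 0.11), and its 95% interval of -0.24 to 0.29 was the narrowest of the 10. Cd28 thus lay close together in all 6 libraries, KO replicate 1 included, where Ctla4 and Icos were lowest.

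Pdcd1, the gene of PD-1, was the member with the smallest edgeR p (0.047 before adjustment). It stood at 131, 181 and 198 CPM in KO replicates 1 to 3 and at 248, 201 and 239 CPM in WT replicates 1 to 3. The 3 KO values were all under the 3 WT values, though KO replicate 3 and WT replicate 2 differed by little. No overlap, in either direction, was found in 7.76% of all genes (4.07% lower in KO), and in 2 of the 10 members, both lower in KO. The means were 169.9 ± 35.0 CPM in KO and 229 ± 25.2 CPM in WT, and the log2 difference was -0.43 (SE 0.18, 95% interval -0.86 to -0.0077). It was -0.28 without KO replicate 1, -0.30 within set A and -0.57 within set B. Btla, which binds the TNF receptor family member HVEM and is abundant on B cells, stood at 44.9, 48.9 and 73.5 CPM in KO and at 64.0, 58.0 and 51.0 CPM in WT. KO replicate 3 had the highest of the 6 values and KO replicate 1 the lowest, so the genotypes overlapped. The log2 difference was -0.048 (SE 0.21, 95% interval -0.56 to 0.46), with the opposite sign without KO replicate 1 (0.082).

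Tigit, an inhibitory receptor of effector Tregs, was the other member without overlap. It stood at 40.3, 74.6 and 87.0 CPM in KO replicates 1 to 3 and at 88.3, 91.0 and 88.8 CPM in WT replicates 1 to 3. The WT libraries were within 1.03-fold of each other, and KO replicate 3 lay just under them. The means were 67.3 ± 24.2 CPM in KO and 89.4 ± 1.47 CPM in WT, and the log2 difference was -0.41 (SE 0.27, 95% interval -1.04 to 0.23, exact permutation p = 0.1, the smallest that 3 against 3 can give, edgeR adjusted p = 0.9999). It was -0.15 without KO replicate 1, -0.64 without KO replicate 3, -0.26 within set A and -0.58 within set B. When libraries were scaled by their totals alone, KO replicate 3 no longer lay below every WT library and Pdcd1 was the single member without overlap.

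Cd226, the activating counterpart of TIGIT, had similar means of 26.7 ± 8.30 CPM in KO and 25.3 ± 3.16 CPM in WT. Its values were 17.7, 28.2 and 34.0 CPM in KO and 21.9, 28.2 and 25.7 CPM in WT, with the lowest and the highest of the 6 values both in KO. The log2 difference was 0.076 (SE 0.27, 95% interval -0.56 to 0.71), and it was 0.30 without KO replicate 1 and -0.14 without KO replicate 3. Cd96, which also binds CD155 and is carried by T and NK cells, stood at 126, 171 and 128 CPM in KO and at 139.9, 211 and 159.6 CPM in WT. The highest value of each genotype was in replicate 2, and the genotypes overlapped. Its log2 difference was -0.27 (SE 0.20, 95% interval -0.74 to 0.20), with -0.0052 within set A and -0.33 within set B. Leaving out WT replicate 2 gave -0.081 and leaving out KO replicate 2 gave -0.43, the ends of its range when 1 library was dropped.

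Lag3, an inhibitory receptor of activated T cells, had the lowest KO mean relative to WT of the 10, at 61.5%. It stood at 33.6, 25.4 and 21.9 CPM in KO replicates 1 to 3 and at 61.5, 39.3 and 30.9 CPM in WT replicates 1 to 3. KO replicate 1 lay above WT replicate 3, and WT replicate 1 stood far above the rest. The log2 difference was -0.70 (SE 0.29, 95% interval -1.40 to -0.0059, exact permutation p = 0.2, edgeR adjusted p = 0.9999). Leaving out WT replicate 1 gave -0.38 and leaving out KO replicate 1 gave -0.89, so Lag3 went the other way from Ctla4, Icos, Pdcd1 and Tigit when KO replicate 1 was left out. Within set A it was -0.95 and within set B -0.19.

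Havcr2, the gene of TIM-3, was the scarcest member, with 34, 136 and 108 counts in KO replicates 1 to 3 and 40, 139 and 31 counts in WT replicates 1 to 3. These are 0.901, 3.88 and 2.91 CPM in KO and 1.16, 4.06 and 0.768 CPM in WT, and the highest library was WT replicate 2. The log2 difference of 0.36 had an SE of 0.81 and a 95% interval of -1.56 to 2.29. It was 0.76 without KO replicate 1 and 1.41 without WT replicate 2, but -0.065 without KO replicate 2 and -0.033 without WT replicate 3. Myeloid cells also express Havcr2, and 14 myeloid markers summed to 929, 1231 and 485 CPM in KO and to 366, 1133 and 221 CPM in WT. Their part in the Havcr2 values was not tested.

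**Figure D2:**
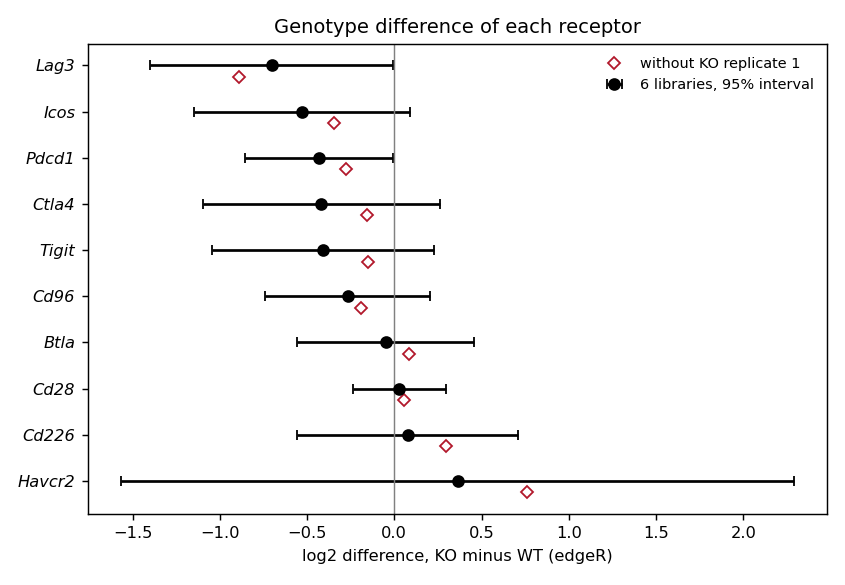
Log2 difference, KO minus WT, of each receptor by edgeR (x axis) from all 6 libraries with its 95% interval (black), and without KO replicate 1 (open diamonds). Leaving out that library moved Icos, Pdcd1, Ctla4 and Tigit toward 0 and Lag3 away from it, and only the unadjusted intervals of Lag3 and Pdcd1 leave out 0.

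Receptors that compete for a ligand were also set against each other within a library, which removes library scaling. Both pairs were chosen for their shared ligand, with the values of the single genes already known. Tigit had 2.28, 2.64 and 2.56 counts for each Cd226 count in KO replicates 1 to 3 and 4.03, 3.23 and 3.45 in WT replicates 1 to 3. All KO libraries lay below all WT libraries, but Tigit alone also did not overlap between genotypes. KO replicate 1 lay close to the other KO libraries, and Tigit and Cd226 each had their lowest value in that library. How often ratios of other gene pairs do not overlap was not counted, so the ratios stand without a background. The log2 ratio was 1.31 ± 0.11 in KO and 1.83 ± 0.16 in WT, a difference of -0.51 (exact two-sided permutation p = 0.1, the smallest that 3 against 3 can give, and 0.1 after adjustment over the 2 ratios). It was -0.45 without KO replicate 1, -0.45 within set A and -0.51 within set B.

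The Ctla4 to Cd28 ratio of counts was 0.259, 0.429 and 0.546 in KO replicates 1 to 3 and 0.557, 0.601 and 0.547 in WT replicates 1 to 3. KO replicate 3 and WT replicate 3 differed only in the fourth digit, while KO replicates 1 and 2 lay clearly lower. The log2 ratio was -1.35 ± 0.55 in KO and -0.82 ± 0.072 in WT, a difference of -0.53 (exact two-sided permutation p = 0.1, the smallest possible, and 0.1 after adjustment). Without KO replicate 1 the difference was -0.23.

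**Figure D3:**
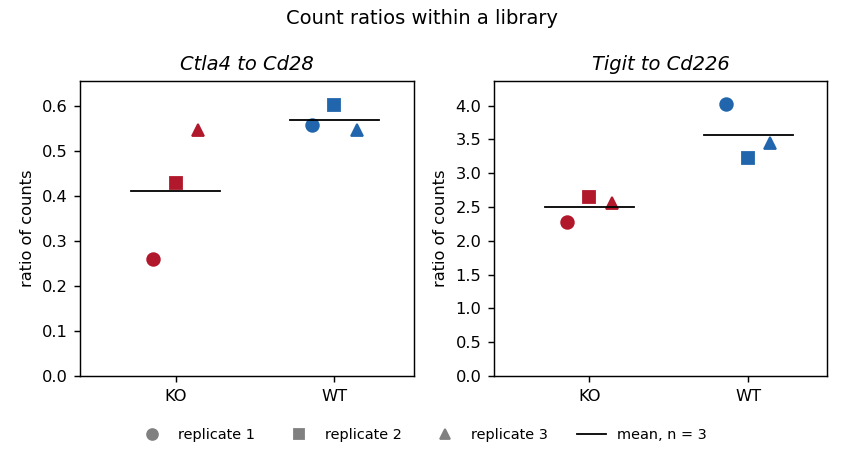
Counts of Ctla4 for each count of Cd28 (left) and of Tigit for each count of Cd226 (right) in the 3 KO and 3 WT libraries, with symbols for replicates and a line at the mean. The Tigit to Cd226 ratio lies between 2.28 and 2.64 in KO and between 3.23 and 4.03 in WT.

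Levels were compared between receptors only as CPM per kilobase of merged exons, since longer transcripts give more fragments. On that scale Pdcd1 led in both genotypes, with 88.0 ± 18.1 in KO and 119 ± 13.0 in WT. Tigit (73.2 ± 26.3 in KO and 97.2 ± 1.60 in WT), Cd96 (64.8 ± 11.8 in KO and 78.0 ± 16.9 in WT) and Icos (49.8 ± 17.0 in KO and 71.8 ± 14.2 in WT) came next. Ctla4 (47.9 ± 19.3 in KO and 64.0 ± 4.06 in WT) and Cd28 (43.8 ± 2.69 in KO and 42.9 ± 3.61 in WT) followed them. In KO the neighbours in this order from Pdcd1 to Cd28 overlapped in their ranges. In WT, Pdcd1 lay above Tigit and Ctla4 above Cd28 in all libraries, while Tigit, Cd96, Icos and Ctla4 overlapped with their neighbours. Btla (16.4 ± 4.56 in KO and 17.0 ± 1.91 in WT) and Lag3 (12.8 ± 2.83 in KO and 20.8 ± 7.50 in WT) were lower again, with Btla ahead in KO and Lag3 ahead in WT, and their ranges overlapped in both. Cd226 (5.45 ± 1.70 in KO and 5.17 ± 0.65 in WT) and Havcr2 (0.94 ± 0.56 in KO and 0.73 ± 0.66 in WT) came last without overlap with their neighbours. Merged exons count every annotated transcript of a gene, so the level of a gene with a long rare exon is understated. The lengths came from GENCODE M21, and the annotation used for the counts is not given. For Tigit, whose merged exons were the shortest (0.919 kilobases), Btla and Cd226 the identifier version differed, so their lengths may differ too.

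Foxp3, which defines the Treg lineage, stood at 28.1, 29.4 and 39.0 CPM in KO and at 39.5, 32.7 and 36.6 CPM in WT. When each receptor was divided by the Foxp3 count of its library, a scaling chosen after the data were seen, Icos was lower in all KO libraries (4.40, 5.20 and 6.04 counts for each Foxp3 count) than in all WT libraries (6.10, 6.12 and 8.11). The margin was small, as KO replicate 3 lay just under WT replicates 1 and 2. Pdcd1 and Tigit overlapped between genotypes on that scale, with log2 differences of -0.26 and -0.30, and Cd28 stood at 9.17, 8.84 and 7.36 in KO and at 7.25, 7.42 and 7.07 in WT. Of the 10 members 6 had a lower mean in KO relative to Foxp3, and the median was -0.17. Foxp3 itself had a lower mean in KO (log2 difference -0.17), so dividing by it shifts the log2 differences upward. Negative differences became smaller in size or, for Btla, changed sign, and positive differences became larger. The shares and the median over all genes were not computed on that scale, so these member values stand without a background. The genes whose pattern over the 6 libraries was most like that of Ctla4, among 10202 genes with a mean of at least 10 CPM, were Il2rb, Ikzf2 and Tigit. Each of them, like Ctla4, had its lowest value in KO replicate 1, and the ranking was not repeated without that library. Il2rb encodes a chain of the IL-2 receptor and Ikzf2 the Treg factor Helios. Likeness was the root mean square difference of centred log2 CPM, which was 0.064 for Il2rb, 0.097 for Ikzf2 and 0.099 for Tigit. Pdcd1 stood at rank 69 and Icos at rank 111 by the same measure, Cd28 at rank 2334 and Lag3 at rank 7844.

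Ligands of these receptors were measured in the same libraries. Of 13 ligand genes 11 were tested, 7 with a lower and 4 with a higher mean in KO, a median log2 difference of -0.044 and 0 calls by edgeR. Without KO replicate 1 only 5 had a lower mean and the median was 0.10. The most abundant were Lgals9, the gene of galectin-9 (188 ± 4.98 CPM in KO and 172 ± 3.24 CPM in WT, log2 difference 0.13), and Hmgb1, a nuclear protein that TIM-3 can bind (146 ± 11.4 CPM in KO and 158 ± 8.53 CPM in WT, log2 difference -0.11). Lgals9 did not overlap between genotypes and was higher in KO, where 7.76% of all genes did not overlap in either direction. Pdcd1lg2, the gene of the PD-1 ligand PD-L2, was named after its values were seen: 7.84, 6.28 and 8.14 CPM in KO and 17.2, 15.6 and 12.3 CPM in WT, without overlap. Its log2 difference was -1.02 (SE 0.25), with an edgeR p of 0.00489 before and 0.9999 after adjustment.

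The medians of the lists for signalling and trafficking lay closer to 0 than the median of the receptors. Of 16 genes of CD28 signalling 8 had a lower and 8 a higher mean in KO (median log2 difference -0.0088), with the kinase Lck at 905 ± 56.3 CPM in KO and 939 ± 38.5 CPM in WT and the adaptor Lcp2 at 292 ± 40.0 CPM in KO and 309 ± 43.4 CPM in WT. Of 11 effectors of inhibitory tails 8 had a lower mean (median -0.15), with the SHP-1 gene Ptpn6 at 227 ± 37.5 CPM in KO and 227 ± 56.4 CPM in WT and the phosphatase Ptpn22 at 192 ± 22.9 CPM in KO and 213 ± 50.5 CPM in WT. Of 12 genes of CTLA-4 trafficking and receptor shedding 9 had a lower mean (median -0.057), led by the clathrin adaptor Ap2m1 (222 ± 22.7 CPM in KO and 224 ± 28.0 CPM in WT) and the GTPase Arf1 (211 ± 26.6 CPM in KO and 204 ± 27.9 CPM in WT). Of 15 other coinhibitory genes 7 had a lower and 8 a higher mean (median 0.060). Cd6, the CD166 receptor (436 ± 79.4 CPM in KO and 492 ± 59.1 CPM in WT), and Cd5, which dampens antigen receptor signals (264 ± 33.9 CPM in KO and 314 ± 6.44 CPM in WT), led that list. In these lists Inpp5d, Ppp2r1a, Lax1 and Cd5 did not overlap between genotypes and were lower in KO. Lgals9 did not overlap and was higher. No overlap, in either direction, was found in 7.76% of all genes. By edgeR 0 genes of these 4 lists were called in either direction, and 0 had an unadjusted p under 0.05.

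Of 15 factors that regulate these receptors 14 had a lower mean in KO (median log2 difference -0.31), with Junb itself among them. Without KO replicate 1 there were 11 with a lower mean and the median was -0.12. The most abundant were Maf (196 ± 75.9 CPM in KO and 251 ± 55.1 CPM in WT, log2 difference -0.35) and Nfatc1 (126 ± 3.78 CPM in KO and 151 ± 12.3 CPM in WT, log2 difference -0.26). Of the 15 factors 4 (Batf, Nfatc1, Tbx21 and Junb) did not overlap between genotypes and were lower in KO, as were 4.07% of all genes. By edgeR 0 of the 15 were called, with Batf, Nfatc1 and Junb under an unadjusted p of 0.05, and DESeq2 called Junb alone (adjusted p = 0.0128).

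Markers of other cell types were present in all libraries, and the KO and WT ranges of their sums overlapped. Treg markers had a lower mean in KO for 9 of 10 genes (median log2 difference -0.44, and 8 of 10 with a median of -0.20 without KO replicate 1), with Izumo1r at 494 ± 175 CPM in KO and 729 ± 87.4 CPM in WT and Ikzf2 at 324 ± 148 CPM in KO and 456 ± 29.8 CPM in WT. Conventional CD4 T cell markers had a higher mean for 11 of 12 genes (median 0.31, and 0.11 without KO replicate 1) and summed to 2567, 2191 and 1638 CPM in KO replicates 1 to 3 and to 1986, 1782 and 1519 CPM in WT replicates 1 to 3, with Tcf7 at 449 ± 124 CPM in KO and 372 ± 16.9 CPM in WT. In KO their sums were highest in replicate 1 and lowest in replicate 3. Ctla4, Icos, Pdcd1, Tigit, Cd28, Btla and Cd226 had the reverse order there, and Lag3 the same order. In WT Ctla4, Btla and Lag3 had the same order as these sums. The share of all genes with such orders was not counted, and 3 libraries allow few orders. Resting lymphocyte genes, which share 7 of their 9 genes with that list, had a higher mean for 7 of 9 (median 0.27, and 0.024 without KO replicate 1). B cell markers had a higher mean for 10 of 12 (median 0.40, and 0.26 without KO replicate 1) and summed to 567 to 735 CPM in KO and to 199, 1176 and 136 CPM in WT replicates 1 to 3, so that WT replicate 2 lay above and the other WT libraries below every KO library. In these libraries the B cell receptor gene Cd79b was at 176 ± 29.5 CPM in KO and 138 ± 154 CPM in WT and Cd79a at 153 ± 30.3 CPM in KO and 110 ± 130 CPM in WT (SD as before). Myeloid markers, whose sums in WT replicates 1 and 3 also lay below every KO library, had a higher mean for 13 of 14, led by Lyz2 (439 ± 215 CPM in KO and 259 ± 272 CPM in WT) and Cst3 (138 ± 21.5 CPM in KO and 115 ± 39.4 CPM in WT). CD8 T and NK cell markers, whose cells also express Tigit, Cd96, Cd226 and Lag3, had a higher mean for 10 of 12 and summed to 324 to 455 CPM in KO and 193 to 412 CPM in WT, led by Ccl5 (218 ± 29.3 CPM in KO and 147 ± 62.9 CPM in WT) and Nkg7 (73.8 ± 51.3 CPM in KO and 43.8 ± 5.96 CPM in WT). All 8 markers shared by T cells were present in every library, and 7 of them had a lower mean in KO (median -0.17), with Trac at 1100.2 ± 124 CPM in KO and 1188 ± 40.2 CPM in WT. No gene of these lists was at 0 in all libraries, though Cd14 and Itgax were at 0 in WT replicate 3. By edgeR 0 of them were called, with Il7r, Dapl1 and Clec9a under an unadjusted p of 0.05 and higher in KO. Gpr83 and, by a small margin, Capg did not overlap between genotypes and were lower in KO. Cd40lg, Il7r and Clec9a did not overlap and were higher, and 7.76% of all genes did not overlap in either direction. The part of other cells in the receptor values was not tested.

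**Figure D4:**
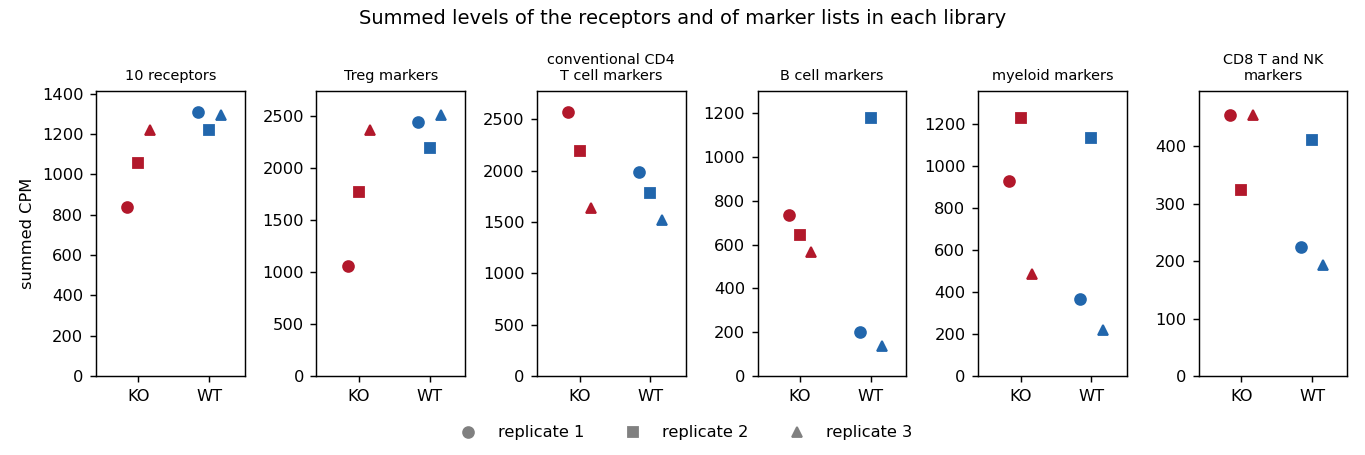
Summed CPM (y axis, linear from 0) of the 10 receptors and of 5 marker lists in the 3 KO and 3 WT libraries, with symbols for replicates. KO replicate 1 has the lowest sum of the receptors (840.5 CPM) and of Treg markers (1057 CPM) and the highest sum of conventional CD4 T cell markers (2567 CPM).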

How the data were processed

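RNA of 3 KO and 3 WT libraries of sorted Tregs was sequenced as single reads of 50 bases, per the labels' protocols. The authors deposited raw read counts, 1 table per library with 53379 Ensembl genes. The tools were bcl2fastq (2.19.0.316), STAR (2.3) and featureCounts on build mm10, per the submitters' processing notes, and the sources used here do not give the annotation or say whether strand was used. Symbols, positions and exon lengths came from GENCODE M21 (GRCm38), which matched 53274 identifiers. Promoter windows came from RefSeq (GRCm38.p6).

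Counts were compared with edgeR 4.0.16 under R 4.3.3. Genes were filtered by filterByExpr and scaled by TMM, and genotype was fitted by robust quasi-likelihood with a two-sided test and Benjamini-Hochberg adjustment over 20475 genes, at a threshold of 0.05. DESeq2 1.42.0, limma-voom (limma 3.58.1) and other scalings, filters and terms were alternatives. CPM use TMM library sizes, and the dispersion was 0.260. No library was a copy of another. Nothing says that replicates are separate animals, and a p-value then reflects only the spread among these libraries, which may be technical.

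The members and the gene lists were chosen with earlier results of these data known. The text names all members, Junb, Foxp3, the 2 most abundant genes of each list (1 of them is not reported here), the 3 genes most like Ctla4 and any gene of a list called by edgeR. Other genes, named for a low unadjusted p or for no overlap, were chosen after their values were seen. Lists were described by counts and medians only.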

Additional observations from a re-analysis of the deposited data

How the results depend on the processing

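No member was called under any of the 15 other fits. Ctla4, Icos, Pdcd1, Tigit, Lag3 and Cd96 kept a negative log2 difference under all 18 alternatives run for each, while the other 4 changed sign. Btla was 0.082 without KO replicate 1, 0.038 without KO replicate 2 and 0.033 without WT replicate 1. Cd28 was -0.026 without KO replicate 3 and -0.026 without WT replicate 2, Cd226 -0.14 without KO replicate 3 and -0.017 without WT replicate 1, and Havcr2 -0.065 without KO replicate 2 and -0.033 without WT replicate 3. Within a set the sign also changed for Btla (0.17 in set B), Cd28 (-0.023 in set A) and Cd226 (-0.07 in set B), and Btla was 0.11 relative to Foxp3, a scaling chosen after the data were seen. Leaving out 1 library at a time, Btla ran between -0.30 and 0.082, Cd28 between -0.026 and 0.095, Cd226 between -0.14 and 0.30 and Havcr2 between -0.065 and 1.41. In the same runs 6 to 9 members had a lower mean in KO, their median ran between -0.43 and -0.15, and 2 to 5 members did not overlap, against 14.7% to 19.2% of all genes. The 5 without KO replicate 3 were Ctla4, Icos, Pdcd1, Btla and Tigit, where 18% of all genes did not overlap. With library totals alone 1 member did not overlap, against 7.62% of all genes. Over all genes DESeq2 called 37, and it called Junb (log2 difference -0.63, adjusted p = 0.0128). Junb was -0.52 within set A and -0.75 within set B. The cause of these changes was not tested.

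Deviations of same-numbered libraries correlated at -0.095, 0.19 and 0.035, and those of differently numbered libraries between -0.18 and 0.13. With 3 libraries of each genotype these values cannot settle whether the replicate numbers pair the libraries. With the replicate number as a block 0 genes and 0 members were called, 7 members had a lower mean and the median was -0.35. Over all genes tested the spread between libraries was 51.0% by the common dispersion, and the members differed in it. For Cd28 the SD was 6.1% of the mean in KO and 8.4% in WT, and for Havcr2 it was 59.3% and 90.2%. The spread limits all comparisons, most of all for Havcr2 with 31 to 139 counts.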
